A study of Mus musculus with 23 samples.

Results

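Epiblast stem cells (epiSCs) without Blimp1 were compared with epiSCs that keep 1 working allele, over all genes on a bead array. The comparison holds 5 of the 23 arrays of the series, chosen by their titles: 2 null lines, BL2 and BL6, and 3 heterozygous lines, BL3, BL4 and BL7. The series asked whether embryonic stem cells (ESCs), epiSCs and the ESC-like cells obtained by reverting epiSCs (rESCs) need Blimp1. Its other arrays hold 6 ESC lines (3 Blimp1-null and 3 heterozygous), each grown in 2i/LIF and also in serum. They also hold 5 lines of rESCs (3 null and 2 heterozygous), and mouse embryonic fibroblasts (MEFs) on 1 array. The rESC arrays labelled BL2, BL3, BL6 and BL7 carry the names of epiSC lines compared here.

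The null epiSCs are Blimp1-/- and the heterozygous epiSCs are Blimp1+/-, all on a C57Bl6/CBA/129 background. Per the study's methods, epiSCs were derived from postimplantation epiblasts and grown on MEF feeders in a serum-free medium with activin A, bFGF and a serum replacement. No wild-type epiSCs were among the arrays, so every line compared carries at least 1 mutant allele. Each line is 1 array, and n below counts lines. The p-values therefore measure the spread between lines, and a difference between embryos of origin cannot be told apart from one between genotypes for any single line.

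Blimp1, encoded by Prdm1, is a zinc-finger repressor that turns on the germ cell program and shuts down the somatic program when primordial germ cells (PGCs) are set aside from the epiblast. EpiSCs are the cultured counterpart of that epiblast. They keep Pou5f1, Sox2 and Nanog, depend on activin and FGF, express genes of the early primitive streak, and have silenced most genes of the naive state of ESCs. Prdm1 itself had no probe with a name in the tables used here, and the loss of its transcript was not analysed here.

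The 5 arrays were alike in depth. Of 45281 probes, 13616 and 12655 were detected (detection p under 0.01) in the null lines BL2 and BL6, and 13421, 12846 and 14599 in the heterozygous lines BL3, BL4 and BL7. Levels below are log2 signals after background correction and normalization over these 5 arrays. Of 28 fibroblast markers with a probe, which could report feeder cells, 23 and 20 were detected in the null lines and 21, 19 and 24 in the heterozygous lines. Their summed linear signals were 8198 and 6323 in BL2 and BL6, against 7105, 7456 and 7097 in BL3, BL4 and BL7, and 117602 in MEFs. The collagen gene Col1a1 was detected on 4 of the 5 epiSC arrays (4.80 to 5.81, against 12.57 in MEFs on the scale over 23 arrays), Col1a2 on none, and Col3a1 was at or near background. Acta2, smooth muscle actin, was detected on all 5 by each of its probes, at 9.999 and 10.12 in the null lines and 10.17, 10.88 and 10.01 in the heterozygous lines by the brightest, against 14.51 in MEFs.

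The epiSC label was checked against marker genes. Fgf5, a growth factor of the postimplantation epiblast, had levels of 8.08 and 7.63 in the null lines and 8.15, 8.90 and 7.73 in the heterozygous lines. Otx2, a homeobox gene of the epiblast, had 9.40 and 9.40 in the null lines and 9.88, 9.16 and 9.02 in the heterozygous lines. Lhx1, a streak gene, had 7.41 and 6.81 in the null lines and 7.06, 7.77 and 7.61 in the heterozygous lines. All 3 were detected in every line and their genotypes overlapped. On the scale set over all 23 arrays, Fgf5 was at most 5.39 and Lhx1 at most 4.37 in ESCs in serum. Otx2 reached 9.21 there and 9.24 in rESCs, within its range of 9.14 to 10.04 in epiSCs, so it did not separate the states. Foxa2, given below, was detected in every line and overlapped between genotypes. Other markers did not all go with the label. Eomes by probe ILMN_1251446 was undetected in both null lines. On the 23-array scale the naive genes Esrrb, Zfp42 and Klf2 were at 10.73, 9.46 and 8.70 in BL6. Their medians in ESCs in serum were 11.63, 9.08 and 9.85. Klf4 was at 5.26 in BL6, against a median of 8.12 in those ESCs.

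Pou5f1, Sox2 and Nanog were kept in both genotypes. Pou5f1 (probe ILMN_1217100) had levels of 11.08 and 10.85 in BL2 and BL6, against 10.62, 10.85 and 9.96 in BL3, BL4 and BL7, a log2 difference of 0.49 (SE 0.27) that did not pass the test (limma, adjusted p = 0.43). Its second probe differed by 0.08. Nanog had 9.63 and 8.77 in the null lines against 10.09, 9.54 and 9.76 in the heterozygous lines (log2 difference -0.59, SE 0.29, limma adjusted p = 0.37). Its second probe went the other way, by 0.38. Sox2 had 8.02 and 8.71 in the null lines and 7.91, 7.86 and 8.01 in the heterozygous lines (0.44, SE 0.22, limma adjusted p = 0.39), so the null lines were above the heterozygous ones, in BL2 barely, and its second probe differed by -0.85 (limma adjusted p = 0.12).

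Whole profiles were close. Pearson's r over all probes, which are not independent replicates, was 0.981 between the null lines. It was 0.967 to 0.986 between null and heterozygous lines (median 0.974 over 6 pairs) and 0.984 to 0.986 among heterozygous lines. Between 424 and 1400 tested probes differed over 2-fold in a null and heterozygous pair, against 408 between the null lines and 217 to 399 among the heterozygous lines. The 3 pairs with BL6 held 1054 to 1400 such probes and the 3 pairs with BL2 held 424 to 907.

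Across the 14355 tested probes, every probe that passed adjusted p under 0.01 was lower in the null lines. There were 58 of them (0.404% of those tested), and 0 were higher (0%). At 0.05, 510 were lower (3.55%) and 5 were higher (0.0348%). The 58 probes stood for 48 named genes and 10 probes without a name, with log2 differences of -2.69 to -1.43 (median -1.82), beside a median of 0.06 over all tested probes. Their adjusted p-values lay between 0.0085 and 0.0096. In the null lines 34 of the 58 were detected on both arrays, 9 on 1 array and 15 on neither. With any 1 of the 5 lines left out, 0 probes passed 0.01 in limma (1241 to 2566 at unadjusted p under 0.05), and 543, 0, 149, 314 and 234 passed 0.05 without BL2, BL6, BL3, BL4 and BL7. Without BL2 or BL6 the null arm is 1 line, which is assumed to vary like the heterozygous lines.

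Kif23, a kinesin of the central spindle needed for cytokinesis, had the lowest ratio. Its probe ILMN_1220121 had levels of 4.88 and 4.52 in the null lines BL2 and BL6, against 7.35, 6.97 and 7.83 in the heterozygous lines BL3, BL4 and BL7. Both null arrays were below detection there and all heterozygous arrays well above it. The log2 difference was -2.69 (SE 0.27, limma adjusted p = 0.0085), which is at least 4.79-fold lower. Such a bound sets the heterozygous mean against the lowest signal of any detected probe on each null array, or the probe's own signal where that is higher.

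Further probes among the 15 with a name and the largest falls were as clearly separated. Nudt21, a subunit of the factor that cleaves pre-mRNA at its poly(A) site, had 4.92 and 4.57 in the null lines against 7.06, 6.69 and 7.31 in the heterozygous lines (at least 3.72-fold lower, limma adjusted p = 0.0085). Hnrnpdl, an RNA-binding protein, had 5.33 and 5.75 in the null lines against 7.77, 7.66 and 7.93 in the heterozygous lines (log2 difference -2.25, SE 0.19, limma adjusted p = 0.0085). In each the genotypes were separated by more than the range within either. Bcas2, a splicing factor (-2.20), Zc3h15, a zinc-finger protein (-2.12), Srp9, a subunit of the signal recognition particle (at least 3.05-fold lower), Hnrnpll, a splicing regulator (-2.07), Paip2, which binds the poly(A)-binding protein (-2.01), and Polr2g, a subunit of RNA polymerase II (-1.99), passed the same test.

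The other named genes among those 15 have varied roles. Smc3, a subunit of cohesin, had 4.36 and 4.37 in the null lines, at background, and 6.32, 6.37 and 6.55 in the heterozygous lines (at least 2.44-fold lower, limma adjusted p = 0.0085). Sptssa, a subunit of serine palmitoyltransferase, had 5.57 and 4.80 in the null lines against 7.52, 7.45 and 7.66 in the heterozygous lines, and was detected in 1 of the null lines. Glrx3, a glutaredoxin, was at least 4.34-fold lower. Kpnb1, the importin beta of nuclear import, differed by -2.14, Ndufs4, a subunit of respiratory complex I, by -2.01, and Nudcd2 was at least 2.81-fold lower.

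For most of these genes a second probe did not move with the first. Of the 48 genes, 28 had 39 further tested probes. Their median log2 difference was -0.01, 33 of the 39 lay within 0.5 of 0 and 4 were lower at 0.05. Probes past 0.01 are left out of the 39 by definition. The called probes with a name were 48, of 48 genes, so no gene had 2 of them. For Kif23 the probe ILMN_1250752 had 8.33 and 8.02 in the null lines and 8.13, 8.32 and 8.12 in the heterozygous lines, a difference of -0.02 (limma adjusted p = 0.97). For Nudt21 the probe ILMN_1234759 had 10.64 and 10.54 in the null lines and 10.51, 10.47 and 10.45 in the heterozygous lines, a difference of 0.11. The genotypes thus overlapped for Kif23 and lay within 0.2 log2 units for Nudt21.

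Dek, a chromatin protein, and Srp9 were the exceptions among the brightest second probes. Dek's second probe had 6.65 and 6.41 in the null lines against 7.86, 8.03 and 7.93 in the heterozygous lines, a difference of -1.41 (limma adjusted p = 0.011). That of Srp9 had 7.25 and 7.85 in the null lines against 8.74, 8.78 and 8.69 in the heterozygous lines, a difference of -1.19 (limma adjusted p = 0.027). For these 2 genes both probes were lower in both null lines. For Pabpc1, the poly(A)-binding protein, the second probe was higher in the null lines, 7.62 and 7.95 against 7.16, 7.14 and 6.76 in the heterozygous lines (0.77, limma adjusted p = 0.10). With only the brightest probe of each gene, the 5-array fit held 26 of 8633 probes lower at 0.01 (0.301%) before re-adjustment over those probes, and 0 after it.

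**Figure D1:**
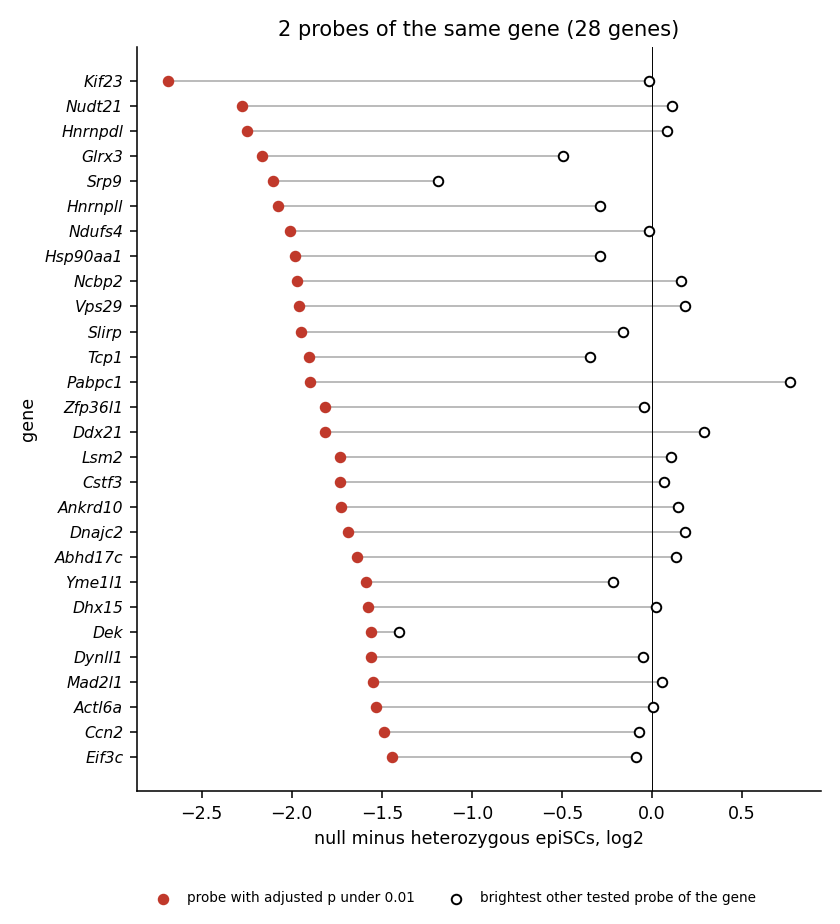
Log2 difference, null minus heterozygous epiSCs (x axis), for the 28 genes (rows) that have both a probe passing adjusted p under 0.01 (filled) and another tested probe, of which the brightest is drawn (open). The filled points lie between -2.69 and -1.45, while the open points gather about 0, apart from Dek (-1.41) and Srp9 (-1.19) on the left and Pabpc1 (0.77) on the right.

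By their median, the same probes were low on arrays of other cells and of the other genotype. On the scale set over 23 arrays, the median level of the 58 probes was 5.77 and 5.72 in the null epiSC lines BL2 and BL6, against 7.70, 7.51 and 7.86 in the heterozygous lines. It was 5.51 in PUM3, a heterozygous ESC line in serum, and 7.13 to 7.45 in the other 5 ESC lines in serum. Among the rESCs it was 5.44 in null BL2, 5.75 in null J2.3 and 7.09 in null BL6, against 7.90 and 7.39 in the heterozygous lines BL3 and BL7. In MEFs it was 5.28 and in ESCs in 2i/LIF 7.36 to 8.50, PUM3 included. BL6 thus had a low median as epiSCs and a median near those of other lines as rESCs, and PUM3 a low one in serum and not in 2i/LIF.

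A set of 251 probes was then defined by a comparison among ESCs in serum. It held the probes at least 2-fold lower in PUM3 than in each other ESC line in serum. The levels compared had been normalized together with the epiSC arrays, so the set is not wholly independent of those arrays. This set was chosen after the values were seen. Of its probes, 245 were tested in epiSCs (1.71% of those tested), with a median log2 difference between null and heterozygous epiSCs of -1.38, against 0.06 for the other tested probes. They made up 38 of the 58 called probes (65.5%) and 128 of the 201 that were at least 2-fold lower in both null lines than in every heterozygous line (63.7%). What lowers these probes on PUM3, BL2, BL6, J2.3 and MEF arrays, and its part in the 58 calls, was not tested.

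**Figure D2:**
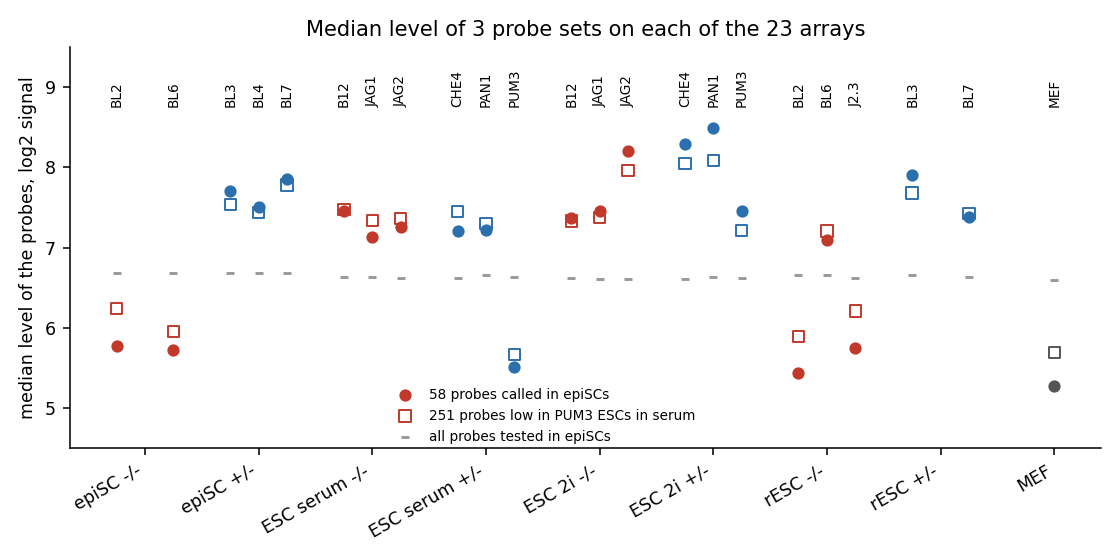
Median log2 signal (y axis) of the 58 probes called in epiSCs (filled circles), of the 251 probes low in PUM3 ESCs in serum (open squares) and of all probes tested in epiSCs (dashes) on each of the 23 arrays, grouped by state with null arrays (red) left of heterozygous ones (blue) and MEFs in grey. The null epiSC lines BL2 and BL6, PUM3 in serum, rESCs of BL2 and J2.3, and MEFs lie at 5.28 to 5.77 for the 58 probes, while every other array lies at 7.09 to 8.50, and the dashes stay level.

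Changes shared by both null lines were counted without a test as well. In 201 probes (1.4% of those tested) both null lines were at least 2-fold below every heterozygous line, and in 0 (0%) both were 2-fold above. Without BL4 among the heterozygous lines the first count was 313. Genotypes did not overlap in 2280 probes that were lower (15.9%) and 2689 that were higher (18.7%) in the null lines. The 5 probes higher at 0.05 were small in effect. Hvcn1, a voltage-gated proton channel, had 5.70 and 5.53 in the null lines against 4.78, 4.57 and 4.76 in the heterozygous lines, where it was not detected (at least 1.47-fold higher, limma adjusted p = 0.030). Rab29, a small GTPase, had 5.81 and 5.91 in the null lines against 5.20, 5.11 and 4.99 in the heterozygous lines (0.76, SE 0.16, limma adjusted p = 0.049). The other 3 had no gene name.

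Eomes, a T-box factor of the anterior streak and definitive endoderm that marks epiSCs, was low in both null lines by one of its probes. The gene lies on chromosome 9 at 118478186 to 118486132 (GRCm38). Its probe ILMN_1251446 had levels of 4.38 and 4.26 in BL2 and BL6, neither detected, against 5.40, 5.61 and 5.73 in BL3, BL4 and BL7, all detected. The null lines lay at the level of ESCs in serum, which ran from 4.18 to 4.38 on the scale over 23 arrays. The log2 difference was -1.26 (SE 0.17, limma adjusted p = 0.013), at least 1.37-fold lower.

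The second probe of Eomes, ILMN_2570496, did not show this. It had 5.43 and 4.78 in the null lines and 5.29, 5.06 and 4.76 in the heterozygous lines, detected in 1 null and 1 heterozygous line, with a difference of 0.07 (limma adjusted p = 0.91). The genotypes overlapped. The tables used here do not say which transcripts each probe reads.

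Fitting all 22 labelled pluripotent arrays together, so that 8 groups share one estimate of the spread, left fewer probes. Of 17716 tested, 7 were lower in null epiSCs at 0.01 (0.0395%) and 0 higher (0%), while 31 were lower (0.175%) and 1 higher (0.00564%) at 0.05. None of the 7 was among the 58 called from the 5 arrays, and 27 of the 32 at 0.05 had passed 0.05 there. With the median of the 251 probes of each array as a covariate, added after the data were seen, 0 passed 0.05 (smallest adjusted p 0.050; 519 at unadjusted p under 0.05 in limma), and the 58 probes had a median difference of -0.36. That covariate was measured on the same arrays and is low in both null epiSC lines, so covariate and genotype cannot be told apart among epiSCs. Of the 58 probes, 38 are among the 251, so the covariate holds part of their own signal.

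The 7 probes were Eomes, Gap43, Tspan6, Lin28b, Akr1e1 and a pair without a name. None of the 7 is among the 251. Eomes (ILMN_1251446) differed by -1.28 (SE 0.14, limma adjusted p = 0.00043). With the covariate it differed by -1.20 (limma adjusted p = 0.050), Gap43 by -2.16, Tspan6 by -1.50 and Lin28b by -0.91 (limma adjusted p = 0.20 for these 3), and Akr1e1 by -1.12 (limma adjusted p = 0.31). Gap43, a growth-cone protein, had 5.13 and 4.48 in the null lines against 6.59, 6.91 and 8.11 in the heterozygous lines, a difference of -2.47 in this fit (SE 0.30, limma adjusted p = 0.00096). Akr1e1, an aldo-keto reductase, had 4.90 and 4.47 in the null lines, not detected, against 6.99, 6.33 and 6.97 in the heterozygous lines (at least 3.11-fold lower, limma adjusted p = 0.0098). No null line reached a heterozygous one for these genes.

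Tspan6, a tetraspanin, repeated the disagreement between probes. By ILMN_2509918 it had 4.82 and 4.27 in the null lines, neither detected, against 6.02, 6.36 and 6.52 in the heterozygous lines (at least 2.26-fold lower, limma adjusted p = 0.0010 over 22 arrays). By ILMN_2515784 it had 9.68 and 9.25 in the null lines and 9.44, 9.99 and 9.55 in the heterozygous lines, overlapping, with a difference of -0.19 (limma adjusted p = 0.72 over 5 arrays). Lin28b, which blocks let-7 processing, had 4.59 and 4.42 in the null lines, not detected, against 5.36, 5.54 and 5.42 in the heterozygous lines, all detected (at least 1.24-fold lower, limma adjusted p = 0.0030 over 22 arrays).

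**Figure D3:**
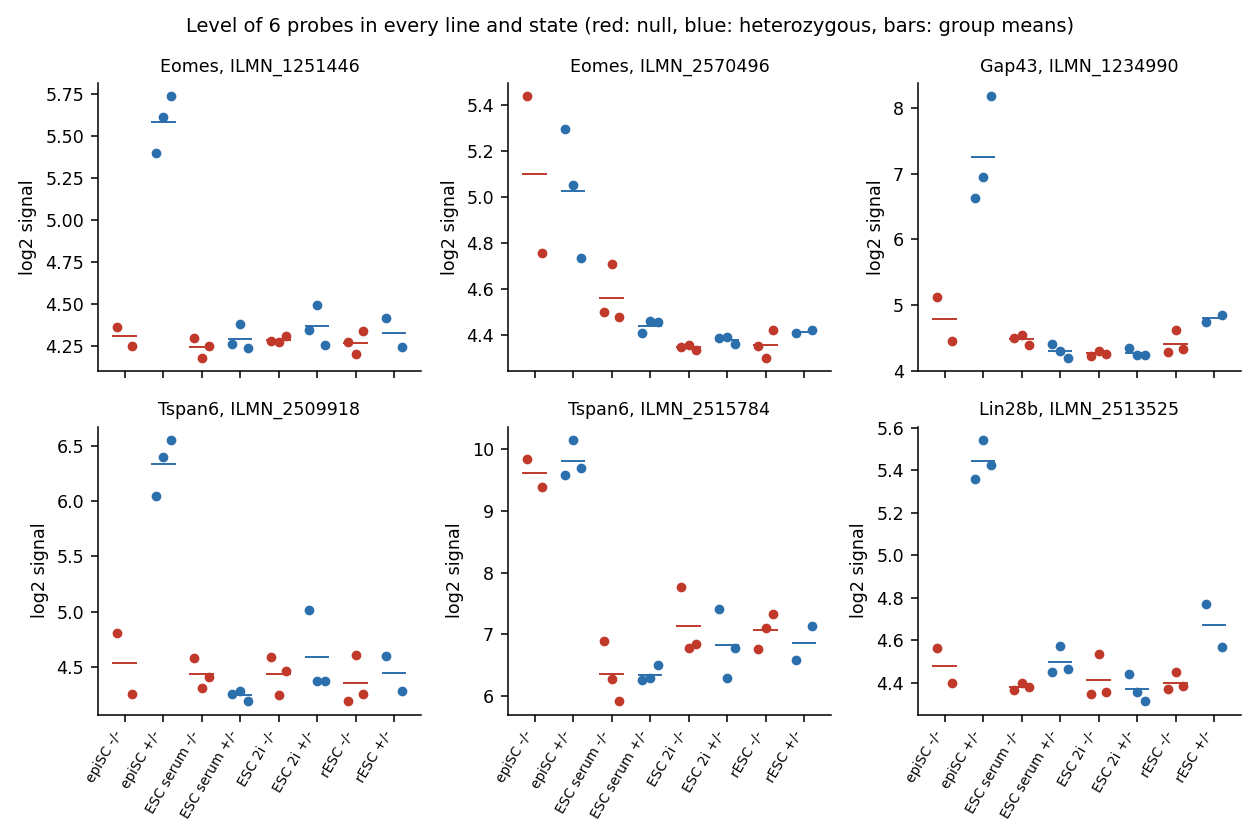
Log2 signal (y axes, each with its own range, normalized over 23 arrays) of 2 probes of Eomes, 1 of Gap43, 2 of Tspan6 and 1 of Lin28b in each line, by state and genotype (null red, heterozygous blue, bars for group means). Eomes ILMN_1251446, Gap43, Tspan6 ILMN_2509918 and Lin28b are highest in the 3 heterozygous epiSC lines, while Eomes ILMN_2570496 and Tspan6 ILMN_2515784 overlap between genotypes of epiSCs.

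The genotype difference in epiSCs was set against that in the other states by interaction contrasts in the same fit. Against ESCs in serum, 4 of 17716 probes passed 0.05 and 0 passed 0.01 (2175 at unadjusted p under 0.05 in limma). They were Eomes ILMN_1251446, by -1.23 (SE 0.19), Tspan6 ILMN_2509918, by -1.996 (SE 0.30), Gap43, by -2.65 (SE 0.40), and an unnamed probe, each with an adjusted p of 0.016. With the cell line as a random block the same 4 passed 0.05 (limma adjusted p = 0.016 for each). All 4 were low in ESCs of both genotypes, where a difference could hardly show. Without BL6 all 4 had an adjusted p of 0.23 and 0 probes passed 0.05, while 66 did without BL2. Eomes and Tspan6 also missed 0.05 without BL4 (0.052) and without BL7 (0.074), as did the unnamed probe without BL7 (0.074). With quantile normalization and no background correction Eomes differed by -0.53 (limma adjusted p = 0.18) and none of the 4 passed 0.05. Against ESCs in 2i/LIF, 0 passed 0.05 (smallest adjusted p 0.061; 1220 at unadjusted p under 0.05 in limma), and against rESCs 0 did (0.12; 540). These 3 contrasts share the 5 epiSC arrays, and PUM3, BL2 and J2.3 with their low probes belong to the serum and rESC groups.

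Some probes lay beyond the heterozygous range in BL6 and not in BL2. In 103 probes (0.718% of those tested), of 84 named genes, BL6 was at least 2-fold above all 3 heterozygous lines while BL2 lay within their range. In 11 (0.0766%) it was 2-fold below. BL2 alone was above in 1 probe (0.00697%), of Zic2, a zinc-finger gene of the epiblast, with 7.07 in BL2 and 5.69 in BL6, against 6.01, 5.84 and 5.64 in the heterozygous lines. It was below in 0 (0%). Among the 103 probes, BL7 was the highest heterozygous line for 71 (68.9%), against 30.8% of all tested probes. These are counts of single lines, with no test.

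Most probes high in BL6 alone were also higher in ESCs than in the other epiSC lines. Of the 103 probes, 102 (99.0%) were at least 2-fold higher in the mean of ESCs in serum than in the mean of the other 4 epiSC lines, against 7.15% of all tested probes. The same held for 94 (91.3%) in ESCs in 2i/LIF, against 6.95%, and for 101 (98.1%) in rESCs, against 5.5%. The other 4 epiSC lines also served to choose the 103 probes, so the shares over all tested probes are not a like comparison. Pla2g1b, a secreted phospholipase, had 4.59 in BL2 and 9.19 in BL6, against 4.67, 4.44 and 5.69 in the heterozygous lines. Gtsf1l had 4.75 in BL2 and 8.89 in BL6, against 4.51, 4.75 and 5.68 in the heterozygous lines. Both were high in BL6, and next highest in BL7.

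Genes low in BL6 alone included Gal, the precursor of the neuropeptide galanin, and Unc45b, a myosin chaperone. Gal had 8.92 in BL2 and 6.94 in BL6, against 8.92, 8.82 and 8.64 in the heterozygous lines. Unc45b had 7.93 in BL2 and 6.25 in BL6, against 8.61, 7.50 and 7.70 in the heterozygous lines. On the scale over 23 arrays both averaged under 5 in ESCs in serum, in 2i/LIF and in rESCs. Of the 11 probes, 6 were at least 2-fold lower in the mean of ESCs in serum than in that of the other 4 epiSC lines (10.4% of all tested probes were), 8 in ESCs in 2i/LIF (12.7%) and 5 in rESCs (8.13%). Psmd8, a proteasome subunit, went the other way, with means of 9.48 in ESCs in serum and 6.26 in the other epiSC lines. Those other lines also served to choose the 11 probes, so the shares over all tested probes are not a like comparison.

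Naive ESC genes differed between lines within each genotype. Of 24 listed genes with a probe, 9 were detected in BL2 and 23 in BL6, against 10 in BL3, 8 in BL4 and 20 in BL7. The median level of the 24 was 4.78 in BL2 and 8.44 in BL6, against 4.83, 4.61 and 6.27 in BL3, BL4 and BL7. BL6 was highest for 21 of the 24 and BL7 second for 16, and for 17 BL6 was at least 2-fold above every other line. Of the 24, 20 were tested, none was called and none of the 20 had genotypes that did not overlap. The array labels give no derivation set. The study's supplement lists epiSC lines 2BL6 and 2BL7, and, without that prefix, BL2, BL3 and BL4. If BL6 and BL7 are 2BL6 and 2BL7, the higher lines may share a derivation set, but BL4 could also be 2BL4. The part of such a set in these levels was not tested.

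Dppa5a, a KH-domain gene abundant in ESCs, had 5.49 in BL2 and 13.87 in BL6, against 6.82, 5.48 and 11.52 in BL3, BL4 and BL7 (log2 difference 1.74, limma adjusted p = 0.78). Esrrb, a nuclear receptor without a known natural ligand, had 4.91 in BL2 and 10.57 in BL6, against 6.48, 4.86 and 7.47 in the heterozygous lines. Zfp42 (Rex1), a zinc-finger gene silenced in epiSCs, had 4.61 in BL2 and 9.33 in BL6, against 4.65, 4.40 and 6.33 in the heterozygous lines (1.85, limma adjusted p = 0.51). In each BL6 was highest and BL7 next, BL2 and BL4 were low, and BL3 lay between for Dppa5a and Esrrb.

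Dnmt3l, the cofactor of the de novo DNA methyltransferases, had 4.73 in BL2 and 10.11 in BL6, against 5.52, 5.09 and 7.13 in the heterozygous lines. Klf2, a zinc-finger activator of naive genes, had 5.84 in BL2 and 8.59 in BL6, against 5.64, 5.27 and 6.46 in the heterozygous lines. Dppa3 (Stella), a maternal and germ cell factor, had 4.59 in BL2 and 7.40 in BL6, against 4.53, 4.49 and 5.37 in the heterozygous lines. BL6 stayed below its own rESCs for Esrrb, at 10.73 in epiSCs and 12.37 in rESCs on the scale over 23 arrays, and for Dppa3, at 7.45 in epiSCs and 7.59 in rESCs. Klf4, Gbx2 and Jam2 were the members highest in BL7. In RNA of whole cultures, a few cells with many transcripts cannot be told apart from many cells with few.

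**Figure D4:**
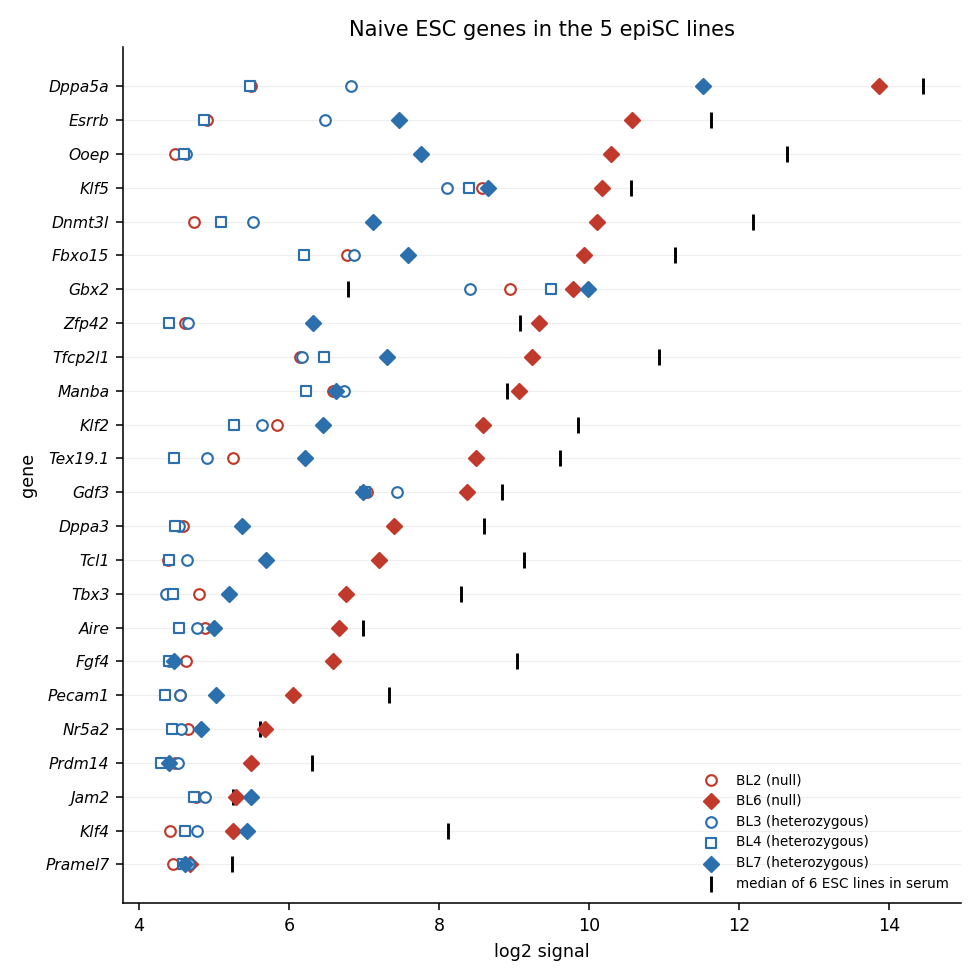
Log2 signal (x axis) of the 24 naive ESC genes with a probe (rows) in the null epiSC lines BL2 and BL6 (red) and the heterozygous lines BL3, BL4 and BL7 (blue), with the median of 6 ESC lines in serum on the scale over 23 arrays as a black tick. BL6 is highest for 21 genes and BL7 second for 16, and BL2 lies mostly near BL3 and BL4.

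**Figure D5:**
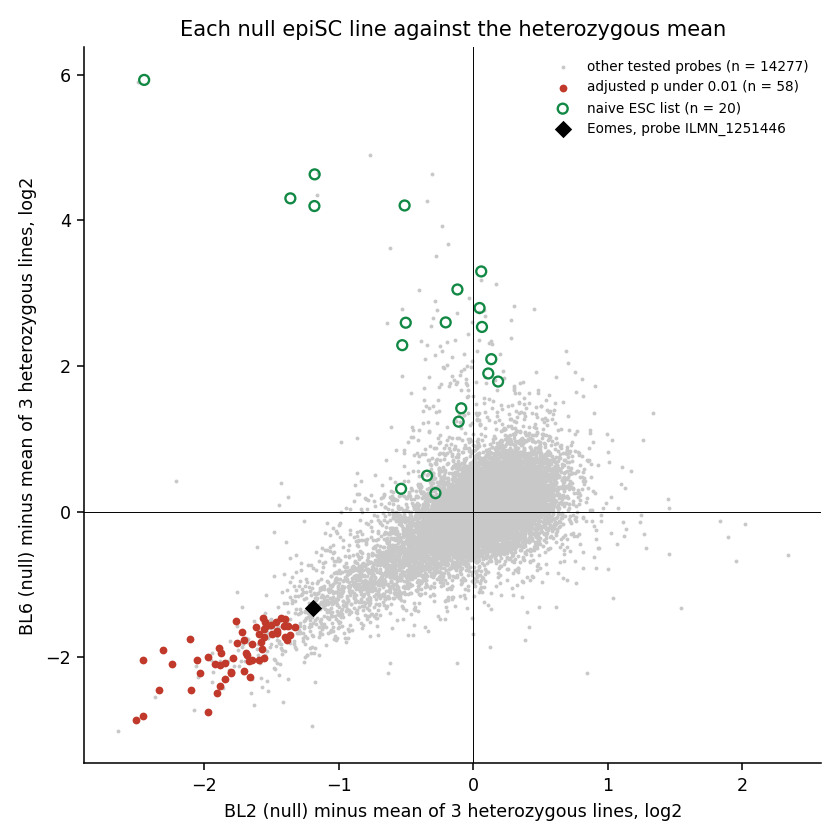
Log2 difference of BL2 (x axis) and of BL6 (y axis) from the mean of the 3 heterozygous epiSC lines for each tested probe, with the 58 called probes in red, the 20 tested naive ESC genes as green circles and Eomes ILMN_1251446 as a black diamond. The called probes and Eomes lie low for both null lines, while the naive genes spread upwards, high in BL6 and near or below 0 in BL2.

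Genes known to act with Blimp1 or in the pathways of epiSCs were described by lists, with the brightest probe of each gene. Over all 8633 such probes, genotypes did not overlap in 1546 that were higher (17.9%) and 1229 that were lower (14.2%) in the null lines, and 235 were lower (2.72%) and 1 higher (0.0116%) at 0.05. No listed gene passed 0.01, and no listed gene was higher at 0.05. The list medians depended on single lines: with 1 of the 5 lines left out, 13 of the 25 changed sign and the other 12 moved by over 1.5 times.

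Among PGC genes, which Blimp1 is known to switch on in the embryo, 12 were tested. Genotypes did not overlap in 4 that were higher and 1 that was lower, against 17.9% and 14.2% over all genes. The median difference was 0.34 (0.22 for BL2 and 0.67 for BL6), against 0.05 over all genes. Kit, a receptor tyrosine kinase of germ cells, had 6.96 and 7.58 in the null lines against 6.56, 6.06 and 6.72 in the heterozygous lines (0.83, SE 0.27, limma adjusted p = 0.18). Alpl, the alkaline phosphatase of PGCs and ESCs, had 6.28 and 7.08 in the null lines against 5.65, 5.78 and 5.70 in the heterozygous lines (0.97, SE 0.25, limma adjusted p = 0.092). Both null lines were above the heterozygous lines, BL6 the more so, and neither gene passed. Ddx4 and Nanos3, germ cell RNA regulators, were not detected in any line.

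Hox and mesoderm genes, which Blimp1 represses in PGCs, had 7 tested members with no non-overlapping gene. Their median was 0.30 (0.07 for BL2 and 0.43 for BL6). Of the genes Blimp1 represses in lymphocytes, 4 were tested, with 2 not overlapping, both lower (14.2% over all genes), and a median of -0.13. Id3, an inhibitor of helix-loop-helix factors, had 5.67 and 6.08 in the null lines against 6.10, 6.88 and 6.62 in the heterozygous lines (-0.66, SE 0.26, limma adjusted p = 0.27). Myc was not detected in any line. None of these genes was called.

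The Nodal and activin pathway maintains epiSCs, and 14 of its genes were tested, with a median of 0.01. The ligand Nodal had 9.65 and 9.52 in the null lines against 9.42, 9.18 and 8.62 in the heterozygous lines (0.51, SE 0.25, limma adjusted p = 0.37). The target and inhibitor Lefty1 had 11.98 and 11.81 in the null lines and 12.27, 11.65 and 11.37 in the heterozygous lines, overlapping. Tdgf1 (Cripto), the Nodal coreceptor, was the one member past 0.05, with 5.60 and 5.23 in the null lines against 7.44, 6.42 and 6.80 in the heterozygous lines (-1.47, SE 0.30, limma adjusted p = 0.044). Both null lines were below all heterozygous lines for Tdgf1. Its probe was also low on other arrays where the called probes had a low median. On the scale set over all arrays, Tdgf1 had 5.08 in PUM3 in serum, against 5.75 to 6.87 in the other ESC lines in serum. Among rESCs it had 5.65 in null BL2 and 5.86 in null J2.3, against 6.81 in null BL6. The heterozygous rESCs BL3 and BL7 had 7.73 and 6.93. The part of that pattern in the Tdgf1 difference was not tested. Acvr2b, Smad2 and Furin differed by 0.02, 0.00 and -0.03.

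Among 15 tested genes of the anterior streak and mesendoderm, which includes Eomes, the median was -0.20. Without overlap 1 was higher and 2 were lower, against 17.9% and 14.2% over all genes. Foxa2, a forkhead factor of the node and endoderm, had 5.12 and 5.94 in the null lines and 5.30, 6.67 and 6.50 in the heterozygous lines (-0.63, SE 0.43, limma adjusted p = 0.52). Gsc, a homeobox gene of the organizer, had 8.46 and 7.66 in the null lines and 8.43, 8.69 and 7.66 in the heterozygous lines. Genotypes overlapped in both. Sp5, a target of WNT, had 7.82 and 7.52 in the null lines against 7.96, 8.68 and 8.92 in the heterozygous lines (-0.85, SE 0.29, limma adjusted p = 0.21).

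Of 17 tested epiblast and epiSC genes (median -0.11), Sfrp2, a secreted WNT modulator, passed 0.05 with 5.17 and 4.75 in the null lines against 6.04, 5.90 and 6.49 in the heterozygous lines (-1.19, SE 0.23, limma adjusted p = 0.039). Fgf15, a growth factor, had 7.20 and 6.90 in the null lines against 8.25, 7.57 and 8.43 in the heterozygous lines (-1.04, SE 0.27, limma adjusted p = 0.11). Cldn6, a tight junction gene, had 8.27 and 8.97 in the null lines against 7.92, 7.74 and 7.57 in the heterozygous lines (0.88, SE 0.24, limma adjusted p = 0.12). The 3 genes did not overlap between genotypes, in different directions.

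The FGF and ERK list (14 tested, median 0.04) held Il17rd (Sef), a feedback inhibitor of FGF signalling. Its probe ILMN_1248657 had 6.11 and 5.17 in the null lines against 7.62, 7.49 and 7.82 in the heterozygous lines (-1.997, SE 0.28, limma adjusted p = 0.014). Its probe ILMN_1218196 had 6.11 and 6.40 in the null lines and 5.94, 6.43 and 5.81 in the heterozygous lines (0.20, limma adjusted p = 0.72). The first separated the genotypes and the second did not. Etv5, an ETS factor induced by FGF, had 7.01 and 8.04 in the null lines against 6.59, 6.73 and 6.55 in the heterozygous lines (0.90, SE 0.29, limma adjusted p = 0.18).

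Interferon and MHC class I genes (20 tested, median 0.15) included H2-K1, a class I heavy chain, with 5.42 and 4.81 in the null lines against 6.36, 5.98 and 6.34 in the heterozygous lines (-1.11, SE 0.23, limma adjusted p = 0.049). Tapbp, the tapasin of peptide loading, lay the other way, with 5.99 and 5.98 in the null lines against 5.64, 5.42 and 5.14 in the heterozygous lines (0.59, SE 0.19, limma adjusted p = 0.19). Among 7 DNA methylation genes, Dnmt3l included, the median was 0.38, but 0.10 without BL6 and 0.12 without BL7. Uhrf1, which guides maintenance methylation, had 10.14 and 10.01 in the null lines against 10.53, 10.77 and 10.62 in the heterozygous lines (-0.57, SE 0.16, limma adjusted p = 0.13), and Dnmt3b had 11.84 and 12.22 in the null lines and 11.80, 12.03 and 11.14 in the heterozygous lines.

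Core pluripotency genes (12 tested) had a median of 0.46, with Dppa4, Dppa5a, Esrrb and Utf1 highest in BL6, and of -0.17 without BL6. The remaining lists had medians between -0.57 and 0.18. They were LIF and STAT3 response (10, 0.11), BMP response (6, 0.15), WNT response (7, -0.23), imprinted genes (15, -0.25), cell cycle and Myc (18, 0.10), p53 and apoptosis (12, 0.18), primitive and visceral endoderm (13, 0.15), fibroblast (23, 0.13), trophectoderm (6, -0.00), neural (4, -0.57), X inactivation and escape (6, -0.23), Y-linked (2, -0.28) and 2-cell-like genes (1, -0.09). For fibroblast markers the median difference was 0.37 for BL2 and -0.09 for BL6.

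Genes beside a targeted allele are inherited with it, so those with a start within 5 Mb of that of Prdm1 (chromosome 10, 44437174 to 44528558, GRCm38) were listed. Of 37 named genes, 27 were tested. Genotypes did not overlap in 4 that were higher and 9 that were lower, against 17.9% and 14.2% over all genes. The median was -0.05, against 0.05 over all genes, and 4 were lower at 0.05, against 2.72% over all genes. Atg5, an autophagy gene, is the tested gene whose start is nearest (0.17 Mb). Its probe ILMN_2998135 had 8.80 and 9.08 in the null lines and 8.70, 8.76 and 8.87 in the heterozygous lines (0.16, limma adjusted p = 0.69). Its probe ILMN_2998139 lay the other way without overlap, with 8.45 and 8.52 in the null lines against 8.64, 8.64 and 8.59 in the heterozygous lines (-0.14, limma adjusted p = 0.70).

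Lin28b (chromosome 10, 45376617 to 45486314), given above, and Hace1 (chromosome 10, 45577814 to 45712345), a ubiquitin ligase, were among the 4. Hace1 had 5.88 and 5.58 in the null lines against 6.98, 6.59 and 7.07 in the heterozygous lines (-1.15, SE 0.21, limma adjusted p = 0.029). The others were Snx3, a sorting nexin (at least 1.62-fold lower, limma adjusted p = 0.013), and Rpf2, a ribosome biogenesis factor (-1.40, limma adjusted p = 0.020), whose probe is one of the 251 low in PUM3 and whose second probe differed by 0.06. With the covariate Snx3 differed by 0.06, Rpf2 by 0.03 and Hace1 by -0.60 (limma adjusted p = 1.00). That covariate includes the Rpf2 probe itself and is low in both null lines. The fit therefore cannot decide whether these genes differ by genotype. Prep, a peptidase gene between Prdm1 and Lin28b, had a probe at -0.97 (limma adjusted p = 0.068) and another at -0.06.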

How the data were processed

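RNA of each line was labelled with biotin and read on 1 Illumina bead array (Mouse WG-6, version 2). The deposited table gives the mean bead intensity of each probe, which the authors did not correct for background or normalize, with a deposited detection p-value that compares the probe with that array's negative control beads (steps of 1 in 936). A second table from the authors, used as an alternative, is on the log2 scale after variance stabilization and quantile normalization in lumi. Scanner software and tool versions: not given in the sources used here. Left out were 2 columns of J2.3 epiSCs.

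Intensities of the 5 epiSC arrays were corrected and normalized with neqc (limma 3.58.1, R 4.3.3, offset 16), as were the 22 and 23 arrays where stated. Probes with a detection p under 0.01 on at least 2 arrays were tested with lmFit and eBayes, null minus heterozygous, without covariates, with Benjamini-Hochberg adjustment over all of them. Calls were made under 0.01, as in the paper, and counts under 0.05 are given too. The scripts were tested on simulated data. Of 45281 probes, 17604 have 1 symbol in the platform's annotation, 8 several, and the rest none here (24799 are outside the authors' value table). The number of arrays limits the precision.

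The groups, members and 25 gene lists were chosen with earlier results of these data known. Named genes are those of the paper and Eomes, up to 15 called probes per direction by size (filled with non-overlapping probes by their gap), the detected naive genes, up to 4 members of each other list, non-overlapping neighbours of Prdm1, and the 10 probes per direction farthest out in 1 null line. Genes with other probes, those called at 0.05 and those of the 22-array fit were named after their values were seen. Gene positions are from RefSeq on GRCm38. Statmod 1.5.0 was used for blocks.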

Additional observations from a re-analysis of the deposited data

Results flagged for a closer look

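The genotype difference in epiSCs differed from that in ESCs in serum for 4 probes, by the interaction contrast in limma (adjusted p = 0.016 for each). The difference of the 2 differences was -1.23 on the log2 scale for Eomes (ILMN_1251446), -1.996 for Tspan6 (ILMN_2509918), -2.65 for Gap43 (ILMN_1234990) and -2.14 for the unnamed probe ILMN_1219258. All 4 were undetected or low in null epiSCs and in ESCs of either genotype. At such levels a fall in null ESCs could hardly show, so the contrast cannot tell whether the difference is particular to epiSCs. For Eomes the difference in epiSCs alone was -1.28 in the same fit. With PUM3 in serum and the rESCs of BL2 and J2.3 left out, a choice made after the data were seen, their adjusted p-values were 0.051, 0.051, 0.051 and 0.045. Without BL6 none passed 0.05, and Eomes and Tspan6 missed it also without BL4 (0.052) and without BL7 (0.074). The second probes of Eomes and Tspan6 did not differ between the genotypes of epiSCs by the test. No group had enough arrays for a search for single outlying samples.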

How the results depend on the processing

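With 2 null lines, 1 array each, the counts of lower probes moved widely. The 58 kept their sign in each setting that tested them except the array covariate, where 52 did. In 234 refits of the 15 named among them, those with the largest falls, 0 changed sign and 181 missed 0.01. Counts lower at 0.01 (58) and 0.05 (510) were 0 and 296 in the authors' value table, 7 and 31 with 22 arrays fitted together, 0 and 124 with no filter, 0 and 173 with the brightest probe of each gene, and 0 and 0 with the array covariate (519 at unadjusted p under 0.05), the last 2 chosen after seeing the data. At 0.01 there were 156 with detection in all arrays of a genotype and 188 with a variance trend. The count higher at 0.05 (5) was 1 with 22 arrays, 1 with no filter, 13 with detection in all arrays of a genotype, 0 with the brightest probes and 0 with the covariate. Leaving out 1 line gave 0 to 0 lower at 0.01, 0 to 381 lower and 0 to 162 higher at 0.05, 209 to 313 shared 2-fold lower and 0 to 3 higher. With BL2 or BL6 left out the null arm is 1 line, and the counts at 0.05 moved more widely. The shared counts were not taken without BL2 or BL6. Quantile normalization without background correction, which shrinks low signals, left 43 of 201 as the shared 2-fold count (36 in the authors' table), 47 and 2 for BL6 alone higher and lower, 0 for BL2 alone, and 0 interactions with serum at 0.05.

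Interactions at 0.01 and 0.05 ranged, with 1 epiSC line left out, over 0 to 20 and 0 to 66 against serum, 0 to 19 and 0 to 59 against 2i/LIF, and 0 to 18 and 0 to 49 against rESCs, each highest without BL2. Without PUM3 in serum and the rESCs of BL2 and J2.3 (chosen after seeing the data), 2 passed 0.05 against serum and 6 against 2i/LIF. With 1 line left out, 13 of the 25 list medians changed sign: core pluripotency (-0.17 to 0.58), naive (-0.24 to 2.56), anterior streak (-0.31 to 0.0042) and BMP (-0.0617 to 0.27) without BL6, trophectoderm (-0.13 to 0.13) without BL6 or BL7, interferon (-0.000737 to 0.27), fibroblast (-0.0928 to 0.37), endoderm (-0.0535 to 0.15) and 2-cell-like (-0.25 to 0.0707) without BL2, Nodal (-0.0719 to 0.0783) without BL2 or BL7, FGF and ERK (-0.0387 to 0.18) and Y-linked (-0.95 to 0.13) without BL3, and neighbours of Prdm1 (-0.0797 to 0.0296) without BL4. The other 12 moved by over 1.5 times, among them LIF and STAT3 (0.0289 to 0.39), p53 (0.11 to 0.32), Hox and mesoderm (0.0740 to 0.46), DNA methylation (0.10 to 0.57) and neural (-0.82 to -0.22). The cause was not tested.

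The replicate numbers did not pair the lines, with correlations of deviations of -0.01 and 0.19. With the replicate block, 0 probes were lower at 0.01 and 31 higher at 0.05. With an assumed derivation set as a block (BL6 and BL7 against BL2, BL3 and BL4) the counts were 0 and 1. That set rests on similar names only and is uncertain for BL4. In the 157 other named probes 62 of 2417 refits changed sign.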

Other observations

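The lines differed in genes that report the sex chromosomes. Eif2s3y, a Y-linked translation factor gene, had levels of 5.92 and 6.15 in the null lines BL2 and BL6, against 7.78, 7.24 and 4.26 in the heterozygous lines BL3, BL4 and BL7. Xist, the RNA that coats the inactive X, had 4.54 and 4.43 in the null lines and 4.60, 5.94 and 8.13 in the heterozygous lines. BL7 had the highest Xist and the lowest Eif2s3y. Ddx3x, an X-linked helicase gene, had 5.36 and 4.82 in the null lines against 6.55, 6.40 and 7.58 in the heterozygous lines (-1.75, SE 0.36, limma adjusted p = 0.048), and its probe is one of the 251 low in PUM3.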
